A study of Mus musculus with 12 samples.

Results

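The 10 genes described here encode the vascular endothelial growth factor (VEGF) and angiopoietin-Tie signalling systems of blood vessels, and were taken by name from the 28689 genes of an RNA-seq table. They are the VEGF ligands Vegfa, Vegfb and Pgf, the VEGF receptors Kdr and Flt1, the angiopoietins Angpt1 and Angpt2, their receptor Tek and its partner Tie1, and the phosphatase Ptprb. All 10 were found in the table and all 10 had at least 1 FPKM (fragments counted per kilobase, relative to library depth) in each of the 12 libraries, so each passed the filter on low values. RNA came from mouse lung endothelial cells (MLECs) of adult mice, selected with beads against CD31 and later against intercellular adhesion molecule 2, cultured and used at passages 1 to 3. The dKO group (6 libraries) carried VE-CAD-CreERT2, a tamoxifen-inducible Cre driven by the VE-cadherin promoter, with Sp1 fl/fl and Sp3 fl/fl. The CTR group (6 libraries) were Cre-negative Sp1 fl/fl Sp3 fl/fl littermates, labelled WT. Both groups received tamoxifen, so the groups differ in Cre as well as in the deletion. How many mice lie behind a library is not given, and if libraries share a mouse or a culture, p-values measure technical spread only.

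VEGF-A signals mainly through KDR (VEGFR2), the receptor that drives endothelial growth, migration and permeability. FLT1 (VEGFR1) binds VEGF-A, VEGF-B and placental growth factor tightly and signals weakly, so that it limits the ligand that reaches KDR. ANGPT1 activates the receptor tyrosine kinase TEK (Tie2) and holds vessels quiescent, ANGPT2 is the context-dependent ligand that endothelial cells store and release, TIE1 is a receptor without a firmly established ligand that modulates TEK, and PTPRB (VE-PTP) removes phosphate from TEK and VE-cadherin. Sp1 and Sp3 are zinc-finger transcription factors that bind GC boxes, and the Kdr and Flt1 promoters are known Sp1 targets. The comparison asks how these genes differed between MLECs with and without the Cre that deletes Sp1 and Sp3.

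The sequences before the gene start are shown first for Kdr, Flt1 and Vegfa, because Kdr and Flt1 are the Sp1 targets whose levels parted between the groups and Vegfa is the gene that fell. RefSeq promoter windows of GRCm38.p6, 300 bases each (250 before the gene start and 50 after it), matched 7 of the 10 genes by symbol, with 9 windows in all. Angpt1, Angpt2 and Ptprb had no entry. The 250 bases before the start are printed 5′ to 3′ on the gene's strand, with each GC box (GGGCGG, or CCGCCC where the box lies on the opposite strand) in capitals. The Kdr stretch is chr5:75978456-75978705, the Flt1 stretch chr5:147726012-147726261 and the Vegfa stretch chr17:46032378-46032627, all on the minus strand.
Kdr: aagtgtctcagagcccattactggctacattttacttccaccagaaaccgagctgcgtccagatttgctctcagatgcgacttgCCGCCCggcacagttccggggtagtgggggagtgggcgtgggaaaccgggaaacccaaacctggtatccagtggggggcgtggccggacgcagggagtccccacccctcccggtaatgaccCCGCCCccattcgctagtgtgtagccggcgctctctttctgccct
Flt1: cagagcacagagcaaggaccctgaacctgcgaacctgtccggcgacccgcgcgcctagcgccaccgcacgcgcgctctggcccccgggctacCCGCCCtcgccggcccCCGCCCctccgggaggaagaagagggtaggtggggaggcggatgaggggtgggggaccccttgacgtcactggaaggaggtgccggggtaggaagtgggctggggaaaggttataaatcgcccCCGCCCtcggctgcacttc
Vegfa: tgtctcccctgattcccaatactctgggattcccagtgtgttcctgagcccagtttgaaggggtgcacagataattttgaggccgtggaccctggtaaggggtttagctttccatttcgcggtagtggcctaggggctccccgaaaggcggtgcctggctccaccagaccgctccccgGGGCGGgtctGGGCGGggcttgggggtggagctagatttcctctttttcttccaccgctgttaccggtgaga
Kdr held 2 GC boxes, starting 166 and 45 bases before the gene start. Flt1 held 3, starting 158, 142 and 19 bases before it. The printed Vegfa window, the first of 2, held 2, at 72 and 62 bases. The second Vegfa window held 1, at 158 bases, and no GENCODE transcript held its start. Of the other windows, the first of 2 for Pgf held 2 GC boxes and that of Vegfb 4, while the windows of Tek and Tie1 held 0. The same letters occurred in 35.7% of all 32851 promoter windows in the RefSeq table, in 19.5% at least 2 times and in 10.7% at least 3 times. Counting only the bases before the start left the number of genes with a GC box at 5. The related GT box (GGGTGG, or CCACCC on the opposite strand) occurred in 31.5% of all windows. Tie1 held 2 GT boxes in its window and Tek 0. Kdr, Flt1, Vegfb, the first Vegfa window and the second Pgf window held 1 each. Among GENCODE transcripts that hold the RefSeq start, the commonest start lay 212 bases upstream of it for Tie1, 235 for Tek, 96 for Vegfb and 477 and 292 for the windows of Pgf. These distances were counted along spliced transcripts, so genomic ones may be larger. Both Pgf windows thus lie within the genomic span of such transcripts. So do at least most of the bases searched before the start for Tie1 and Tek, and at least some for Vegfb. Another transcript of Tek began at the RefSeq start itself. A match is a description of these letters and not of binding.

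Measured relative to all fragments, 7 of the 10 genes differed between dKO and CTR MLECs at an adjusted p under 0.05 (limma on log2(FPKM + 1), Benjamini-Hochberg over 12467 genes), where 53.1% of all genes tested did. Higher in dKO were 6 of the 10 (Tie1, Pgf, Kdr, Tek, Vegfb and Ptprb), against 20.4% of all genes, though Tek, Vegfb and Ptprb had negative log2 fold changes once libraries were scaled to endothelial markers. Lower was 1 gene (Vegfa), against 32.6%. Flt1, Angpt1 and Angpt2 did not pass. The study's methods also ask for a log2 fold change beyond 1.5 in size, which 247 genes (1.98%) had here and 0 of the 10. The study applied this to DESeq2 results, and a supplementary legend speaks of more than 1.5-fold instead. The median log2 fold change of the 10 genes was 0.45, and that of all genes tested −0.10. Of all genes called, 38.5% were higher in dKO, and 50.9% with median-of-ratios scaling of the libraries.

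**Figure D1:**
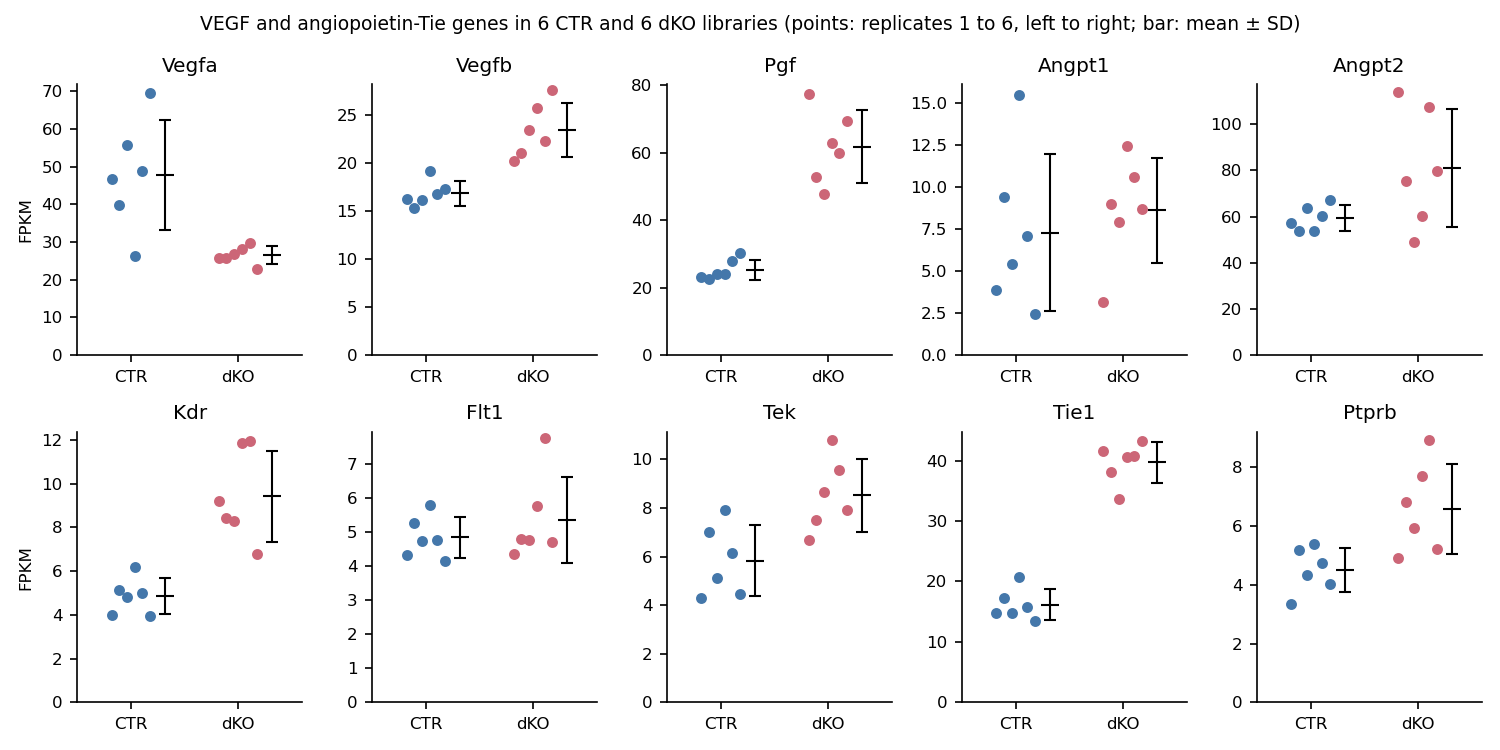
FPKM of the 10 genes in 6 CTR (blue) and 6 dKO (red) libraries, 1 panel a gene with its axis starting at 0; points are libraries in the order of their replicate numbers and bars show the mean and SD. All dKO libraries lie above all CTR libraries for Vegfb, Pgf, Kdr and Tie1, as for 11.3% of all genes tested. The groups overlap for the other 6 genes. The highest CTR value of Tie1 was 20.7 FPKM and its lowest dKO value 33.7 FPKM.

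The targeted genes check the labels. Sp1 was 19.4 to 23.7 FPKM in CTR and 8.42 to 12.1 FPKM in dKO libraries, all 6 dKO libraries below all CTR libraries. Sp3 was 24.2 to 31.1 FPKM in CTR and 22.5 to 26.9 FPKM in dKO libraries, with 2 of 6 dKO libraries below the CTR range (adjusted p = 0.0902, limma). The FPKM cover each gene as a whole, deleted and kept exons together, and the dKO assignment therefore rests on the labels and Sp1.

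Markers show which cells the libraries held. The 12 endothelial markers were detected in each library, with Cdh5 (VE-cadherin, also the source of the Cre promoter) the most abundant of them (88.9 ± 16.1 FPKM in the 6 CTR and 140 ± 17.1 FPKM in the 6 dKO libraries, SD). Their summed level was 223 to 356 FPKM in CTR and 391 to 541 FPKM in dKO libraries without overlap, and 11 of 12 were higher in dKO with a median log2 fold change of 0.74. Markers of other cells were abundant too. The summed level of the fibroblast markers was 2128 to 2710 FPKM in CTR and 829 to 1662 FPKM in dKO, with 1 of 7 tested higher and 3 lower (Col1a1 1173 FPKM in CTR and 572 FPKM in dKO). That of the 10 macrophage markers was 823 to 1371 FPKM in CTR and 2399 to 5349 FPKM in dKO, with 9 higher and 1 lower. Mesothelial markers summed to 28.8 to 38.6 FPKM in CTR and 66.3 to 146 FPKM in dKO, 5 of 6 higher.

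The sums of smooth muscle markers (489 to 1464 FPKM in CTR and 437 to 888 FPKM in dKO; Acta2 the most abundant), pericyte markers (78.1 to 114 FPKM and 56.4 to 112 FPKM; Pdgfrb), lung epithelial markers (148 to 582 FPKM and 271 to 437 FPKM; Sftpc) and lymphatic markers (102 to 181 FPKM and 112 to 226 FPKM; Lyve1) overlapped between the groups. Of the tested markers, 1 of 7 for smooth muscle, 3 of 7 for pericytes, 3 of 10 for lung epithelium and 3 of 6 for lymphatic vessels were higher in dKO, and 1 pericyte and 1 lymphatic marker were lower. The lower lymphatic marker, Mmrn1, was at 8.46 to 19.3 FPKM in CTR libraries and listed at 0 in all dKO libraries. It was tested only because its CTR values passed the filter, so its call is no support. Among platelet markers Pf4 alone was abundant enough to be tested (15.4 FPKM in CTR and 75.8 FPKM in dKO), while Gp9 and Ppbp were at or near 0. An extraction protocol in the labels speaks of retinas, and none of 7 retina markers exceeded 0.329 FPKM in any library. In these bulk libraries, fewer cells of a type and less RNA per cell cannot be told apart, and the part of fibroblasts, macrophages and other cells in the results below was not tested.

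The receptors with their phosphatase are described first. Kdr was 3.93 FPKM in the lowest, 4.92 FPKM in the median and 6.19 FPKM in the highest CTR library, and 6.79, 8.80 and 11.97 FPKM in the corresponding dKO libraries. The lowest dKO library, replicate 6, still lay above the highest CTR library, replicate 4. No overlap in this direction was found for 11.3% of all genes. The mean of Kdr was 4.85 ± 0.829 FPKM (SD, n = 6) in CTR libraries against 9.41 ± 2.09 FPKM (SD, n = 6) in dKO libraries, a log2 fold change of 0.82 (SE 0.13, 95% interval 0.53 to 1.11, adjusted p = 0.000249 from limma with Benjamini-Hochberg adjustment).

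Flt1, the other VEGF receptor, did not move with Kdr. It was 4.15, 4.75 and 5.79 FPKM in the lowest, median and highest CTR libraries and 4.35, 4.77 and 7.76 FPKM in the dKO libraries. The medians were almost equal, and replicate 5 was the 1 dKO library above the CTR range. The log2 fold change was 0.11 (SE 0.12, 95% interval −0.15 to 0.36, adjusted p = 0.461 from limma with Benjamini-Hochberg adjustment), an interval that leaves room for a small change either way. Soluble and membrane-bound forms of Flt1 are summed in 1 value per gene.

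The ratio of Flt1 to Kdr within a library does not depend on how libraries are scaled. It was 0.936 to 1.08 in the CTR libraries (geometric mean 1.00) and 0.473 to 0.692 in the dKO libraries (geometric mean 0.568), with no overlap. The CTR libraries held nearly equal FPKM of both receptors, and every dKO library held more Kdr than Flt1. The log2 ratio was lower by −0.82 in dKO (two-sided exact permutation test over 924 splits, p = 0.00216, the smallest that 6 against 6 allow, adjusted p = 0.00495 over 16 ratios).

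Tie1 showed the widest separation of the receptors. It was 13.5, 15.3 and 20.7 FPKM in the lowest, median and highest CTR libraries and 33.7, 40.7 and 43.3 FPKM in the dKO libraries. The mean was 16.2 ± 2.56 FPKM (SD, n = 6) for CTR libraries, against 39.7 ± 3.37 FPKM (SD, n = 6) for dKO libraries, 2.46-fold higher. The log2 fold change was 1.26 (SE 0.10, adjusted p = 1.12e-06 from limma with Benjamini-Hochberg adjustment), larger than that of 97.7% of all genes tested.

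Tek, the receptor that binds the angiopoietins, was 4.30, 5.64 and 7.92 FPKM in the lowest, median and highest CTR libraries and 6.69, 8.28 and 10.8 FPKM in the dKO libraries. The groups overlapped, with 3 of 6 dKO libraries above the CTR range. Its log2 fold change was 0.49 (SE 0.14, adjusted p = 0.0109 from limma with Benjamini-Hochberg adjustment), and −0.17 with libraries scaled to endothelial markers. The ratio of Tie1 to Tek was 2.47 to 3.46 in CTR and 3.76 to 6.23 in dKO libraries without overlap, and the geometric mean went from 2.82 to 4.70 (log2 difference 0.74, two-sided exact permutation test, p = 0.00216, adjusted p = 0.00495).

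Ptprb was 3.35, 4.54 and 5.38 FPKM in the lowest, median and highest CTR libraries and 4.92, 6.37 and 8.92 FPKM in the dKO libraries. Of the dKO libraries, 4 of 6 lay above the CTR range, replicates 1 and 6 being the others. The log2 fold change was 0.45 (SE 0.13, adjusted p = 0.0128 from limma with Benjamini-Hochberg adjustment), and −0.20 with libraries scaled to endothelial markers. Ptprb stayed close to Tek, and their ratio was 0.783 in CTR and 0.765 in dKO (geometric means; log2 difference −0.03, two-sided exact permutation test, p = 0.734, adjusted p = 0.783), a p that does not show the ratios to be equal.

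**Figure D2:**
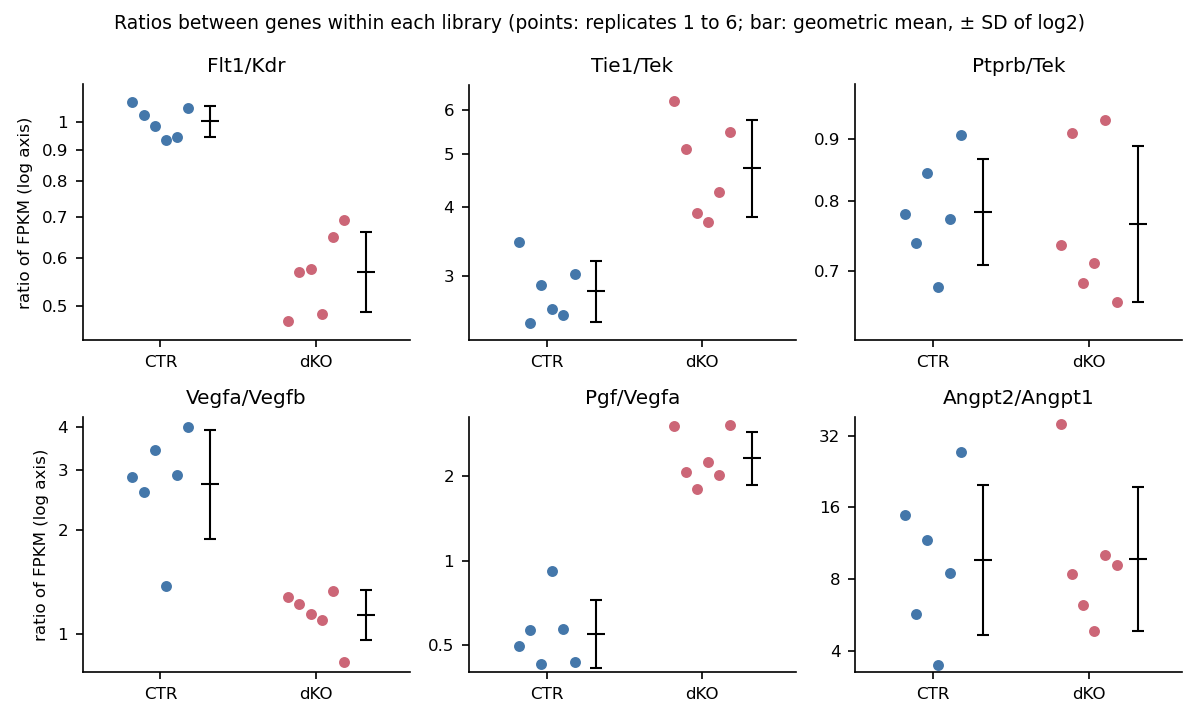
Ratio of the FPKM of 2 genes within each of 6 CTR (blue) and 6 dKO (red) libraries, on log axes that differ between panels; points are libraries in replicate order and bars the geometric mean with the SD of the log2 ratio. Flt1/Kdr, Tie1/Tek, Vegfa/Vegfb and Pgf/Vegfa separate the groups without overlap, and Ptprb/Tek and Angpt2/Angpt1 do not.

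Among the ligands, Vegfa was the gene that fell. It was 26.4, 47.7 and 69.4 FPKM in the lowest, median and highest CTR libraries and 22.9, 26.3 and 29.7 FPKM in the dKO libraries. The dKO libraries lay close together, while CTR replicate 4 fell among them and CTR replicate 6 was highest. The mean was 47.8 ± 14.5 FPKM (SD, n = 6) for CTR libraries against 26.5 ± 2.34 FPKM (SD, n = 6) for dKO libraries, a log2 fold change of −0.77 (SE 0.18, 95% interval −1.15 to −0.39, adjusted p = 0.00268 from limma with Benjamini-Hochberg adjustment). Without CTR replicate 4 it was −0.93 (adjusted p = 6.66e-05).

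Pgf and Vegfb, the ligands that bind FLT1 and not KDR, both rose relative to all fragments, and Vegfb turned lower (−0.29) with libraries scaled to endothelial markers. Pgf was 22.6, 24.1 and 30.2 FPKM in the lowest, median and highest CTR libraries and 47.9, 61.5 and 77.4 FPKM in the dKO libraries. The groups did not overlap, and the mean was 2.44-fold higher in dKO (log2 fold change 1.24, SE 0.11, adjusted p = 3.79e-06 from limma with Benjamini-Hochberg adjustment). Vegfb was 15.4, 16.5 and 19.2 FPKM in the lowest, median and highest CTR libraries and 20.2, 22.9 and 27.6 FPKM in the dKO libraries. The groups were again apart, by a smaller step (log2 fold change 0.45, SE 0.08, adjusted p = 0.000539 from limma with Benjamini-Hochberg adjustment). No overlap in this direction was found for 11.3% of all genes tested.

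The balance of the VEGF ligands within a library therefore differed. Vegfa was 1.38 to 4.01 times as abundant as Vegfb per length in the CTR libraries and 0.829 to 1.33 times in the dKO libraries (log2 difference −1.26, two-sided exact permutation test, p = 0.00216, adjusted p = 0.00495). Pgf was at 0.431 to 0.916 of Vegfa in CTR and at 1.79 to 3.03 of it in dKO libraries (log2 difference 2.07, two-sided exact permutation test, p = 0.00216, adjusted p = 0.00495). Vegfa exceeded Pgf in every CTR library and Pgf exceeded Vegfa in every dKO library. Without CTR replicate 4 the difference was 2.22.

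Angpt1 varied most between libraries of a group, with a coefficient of variation of 64.3% in CTR and 36.2% in dKO. The gene, made mainly by perivascular and mesenchymal cells, was 2.45, 6.29 and 15.5 FPKM in the lowest, median and highest CTR libraries and 3.17, 8.84 and 12.5 FPKM in the dKO libraries. Both groups covered the same range (log2 fold change 0.32, SE 0.36, 95% interval −0.46 to 1.09, adjusted p = 0.475 from limma with Benjamini-Hochberg adjustment). Angpt2 was 53.6, 58.9 and 67.2 FPKM in the lowest, median and highest CTR libraries and 49.1, 77.7 and 114 FPKM in the dKO libraries.

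For Angpt2, 4 of 6 dKO libraries lay above the CTR range and replicate 3 lay below it. The log2 fold change was 0.39 (SE 0.18, 95% interval 0.00 to 0.77, adjusted p = 0.0817 from limma with Benjamini-Hochberg adjustment), and without dKO replicate 3 it was 0.52 (adjusted p = 0.0126). With median-of-ratios scaling it was 0.48 (adjusted p = 0.0325). The ratio of Angpt2 to Angpt1 had geometric means of 9.62 in CTR and 9.72 in dKO (log2 difference 0.01, two-sided exact permutation test, p = 0.981, adjusted p = 0.981), and ran from 3.48 to 27.4 within the CTR group alone. Angpt2 shares 70.7% of its exon bases with Mcph1 on the opposite strand, and without a stated strand setting their fragments cannot be told apart; Mcph1 was at 3.28 FPKM in CTR and 2.15 FPKM in dKO.

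Because FPKM is scaled to gene length, the 10 genes can be set in order of level, given the lengths behind the deposited values. The length inferred for Vegfb was 1605 bases against 3255 annotated exon bases, and for Vegfa 4285 against 4299. For Angpt2 it was 3690 against 4792 and for Angpt1 5205 against 7184. Another choice of lengths would move this order and the level of ratios between genes, but not their log2 differences between groups. In CTR MLECs the order of mean FPKM was Angpt2 (59.3), Vegfa (47.8), Pgf (25.3), Vegfb (16.9), Tie1 (16.2), Angpt1 (7.30), Tek (5.83), Kdr (4.85), Flt1 (4.84) and Ptprb (4.50). Each gene overlapped in range with the next in this order, except that every CTR value of Pgf lay above those of Vegfb. In dKO MLECs the order was Angpt2 (81.0), Pgf (61.7), Tie1 (39.7), Vegfa (26.5), Vegfb (23.4), Kdr (9.41), Angpt1 (8.64), Tek (8.52), Ptprb (6.58) and Flt1 (5.35). The ranges of Angpt2 and Pgf overlapped, as did those of Vegfa and Vegfb and those of neighbours from Kdr to Flt1. Pgf and Tie1 stood above Vegfa there, with every dKO library of either gene above the highest dKO value of Vegfa.

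The receptors are made mainly by endothelial cells, so each gene was also set against the summed FPKM of the 12 endothelial markers of its library. Relative to these markers Tie1 was still higher in dKO and Flt1 was lower, both without overlap between the groups. The ratio of Tie1 to the markers was 0.0535 to 0.0665 in CTR and 0.0751 to 0.0944 in dKO (log2 difference 0.54, two-sided exact permutation test, p = 0.00216, adjusted p = 0.00495). This compares Tie1 with the sum, and single markers differed: Icam2 had a log2 fold change of 1.25 in FPKM, close to the 1.26 of Tie1. The ratio of Flt1 to the markers was lower. That of Flt1 was 0.0162 to 0.0194 in CTR and 0.00959 to 0.0146 in dKO (log2 difference −0.65, two-sided exact permutation test, p = 0.00216, adjusted p = 0.00495). A fall by this measure was common: with all genes scaled to these markers, 80.7% of all genes tested were lower and 3.87% higher. The median log2 fold change of all genes was then −0.74, against −0.54 for Flt1, which thus fell less than the median gene.

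The ratio of Kdr to the markers was 0.0170 to 0.0187 in CTR, the narrowest range of the 10 genes on the log2 scale (SD 0.05), and 0.0139 to 0.0225 in dKO. In 5 of 6 dKO libraries it lay above the CTR range and in replicate 6 below it (log2 difference 0.18, two-sided exact permutation test, p = 0.145, adjusted p = 0.178). Without dKO replicate 6 the difference was 0.28 (two-sided exact permutation test, unadjusted p = 0.00216). In 4 alternative settings that kept all libraries it was 0.05 to 0.18, and none passed (exact permutation or sign-flip test, p = 0.156 to 0.697). The rise of Kdr in FPKM remained without this library, with log2 fold changes of 0.75 to 0.90 when any 1 library was left out. Tek (log2 difference −0.20, exact permutation p = 0.0649, adjusted p = 0.104) and Ptprb (−0.24, exact permutation p = 0.0909, adjusted p = 0.132) did not pass against the markers.

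**Figure D3:**
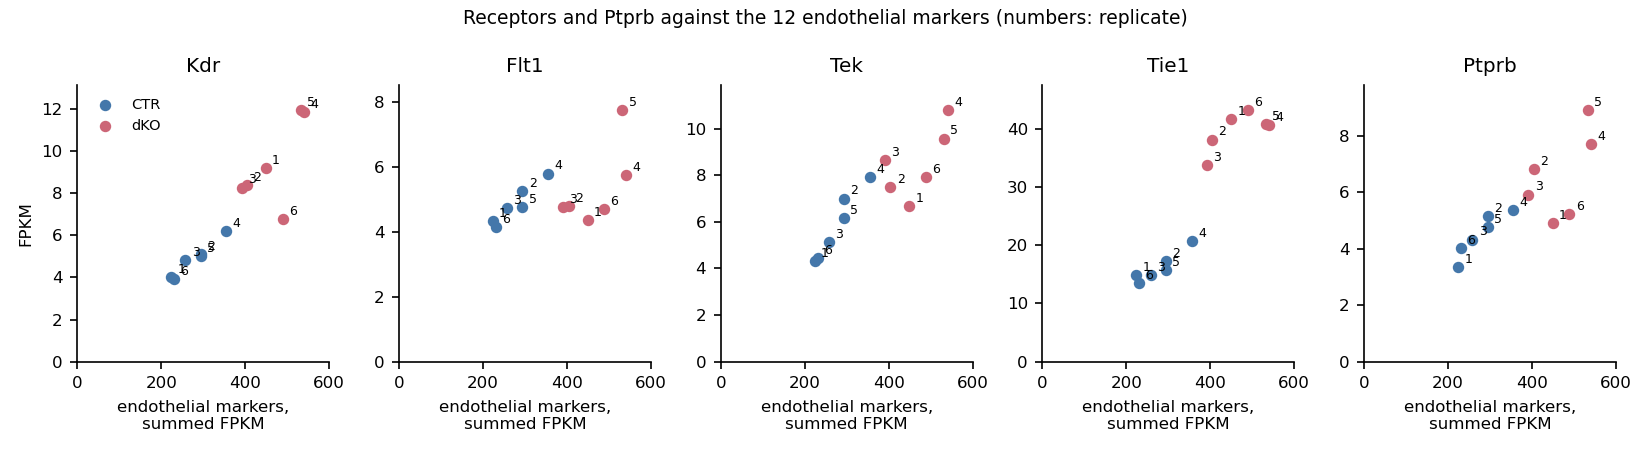
FPKM of each receptor and Ptprb (vertical axis, from 0) against the summed FPKM of the 12 endothelial markers (horizontal axis) in 6 CTR (blue) and 6 dKO (red) libraries, each numbered by replicate. Relative to the markers, 5 dKO libraries lie above the CTR range of Kdr and replicate 6 below it, the dKO libraries of Tie1 lie above the CTR range and those of Flt1 below it.

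Of the ligands, Vegfa was lower relative to the endothelial markers in every dKO library (log2 difference −1.56, two-sided exact permutation test, p = 0.00216, adjusted p = 0.00495), and Pgf was higher (0.51, two-sided exact permutation test, p = 0.013, adjusted p = 0.026). Vegfb was lower by this measure (−0.30, two-sided exact permutation test, p = 0.0368, adjusted p = 0.0654), which misses the threshold once adjusted. Angpt1 (−0.39, exact permutation p = 0.346) and Angpt2 (−0.38, exact permutation p = 0.143) did not pass. Cells other than endothelial cells also make ligands, and for these genes the endothelial markers are 1 of several possible references.

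Scaling all genes to the endothelial markers moved the median log2 fold change of all genes from −0.10 to −0.74, a shift of −0.64. Under it 84.6% of all genes were called, 3.87% of all genes higher and 80.7% lower, and of the 10 genes 4 were called, 2 of them higher. The log2 fold changes of Vegfb (−0.29), Tek (−0.17) and Ptprb (−0.20) turned negative, that of Flt1 became −0.54 (adjusted p = 0.000413 from limma) and that of Kdr became 0.16 (adjusted p = 0.228). Tie1 (0.52, adjusted p = 0.000498), Pgf (0.49, adjusted p = 0.00945) and Vegfa (−1.52, adjusted p = 4.81e-05) kept their direction and call.

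**Figure D4:**
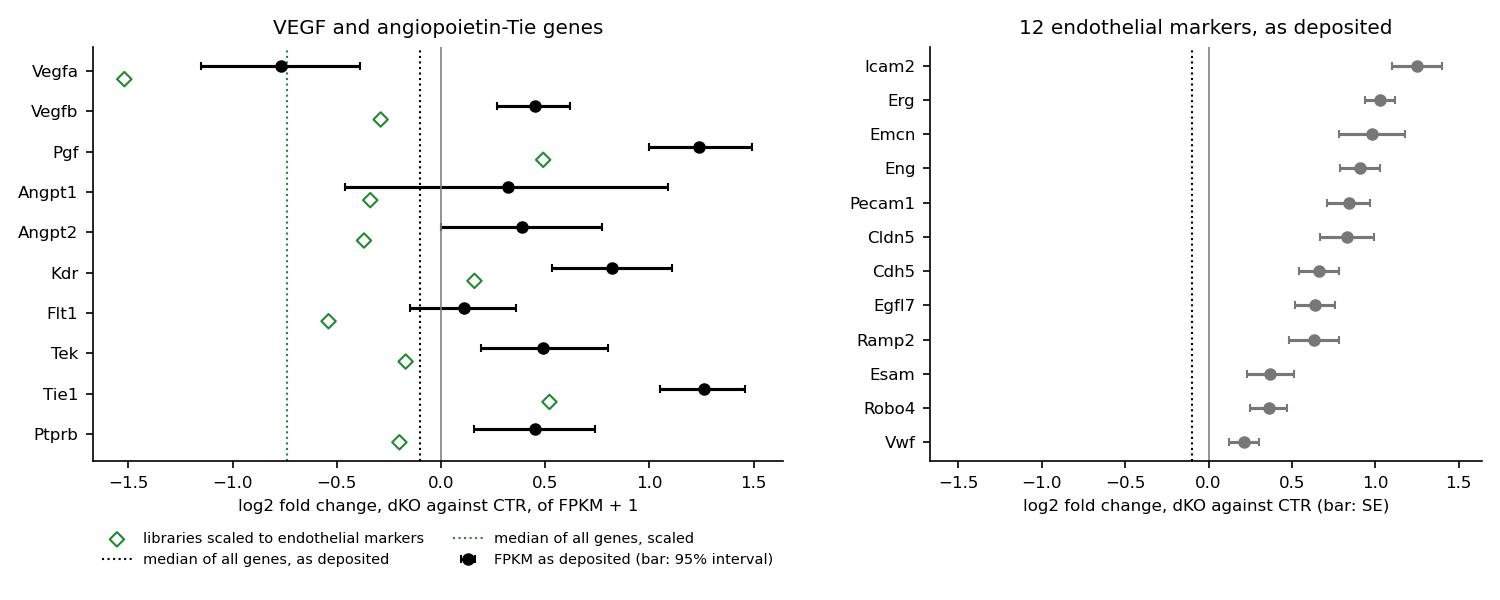
Left, log2 fold change (dKO against CTR, FPKM + 1) of the 10 genes with FPKM as deposited (black, bars 95% interval) and with libraries scaled to endothelial markers (green diamonds), with dotted lines at the median of all genes under each. Right, the 12 endothelial markers with FPKM as deposited (bars SE); after scaling, Vegfb, Angpt1, Angpt2, Flt1, Tek and Ptprb change sign, and Tie1, Pgf, Kdr and Vegfa keep theirs.

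Within the groups, the receptors varied together. After centring log2(FPKM + 1) on the group means, Pearson's r over the 12 libraries was 0.885 between Flt1 and Ptprb, 0.816 between Kdr and Flt1, 0.818 between Kdr and Ptprb and 0.757 between Kdr and Tek. Tie1 followed the others less closely, with r between 0.355 (Ptprb) and 0.606 (Tek). These libraries also share their content of endothelial RNA, so the values describe the libraries and carry no test. Angpt1 had an r of 0.914 with Tek and of −0.663 with Vegfa, and Vegfa had −0.839 with Tie1.

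Among all genes tested, those most like Kdr by the same measure were Adgrf5 (r = 0.963), an adhesion receptor of lung endothelium, and Fhip2b (0.935). Flt1 was most like Cp (0.974), which encodes ceruloplasmin, and Nfkb1 (0.962). Tek was most like the Notch ligand gene Jag2 (0.984) and Ace (0.974), the angiotensin-converting enzyme. Tie1 was most like Rab34 (0.931) and Erbb2 (0.927), and Ptprb like the laminin gene Lama5 (0.983) and Dock9 (0.962). None of these 10 partners was chosen for its difference between the groups, since the group means were removed.

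The other genes of the pathways were taken from 5 lists. Of 10 further ligands, receptors and partners, 4 were higher in dKO and 0 lower, where 20.4% of all genes tested were higher and 32.6% lower. The largest rises were those of Flt4 (VEGFR3, the receptor for VEGF-C and VEGF-D, and also a lymphatic marker) from 7.76 ± 1.37 to 17.6 ± 5.79 FPKM (SD, n = 6 each), of Efnb2 (ephrin-B2, which aids VEGF receptor uptake) from 7.10 to 15.6 FPKM, and of Cdh5. Their log2 fold changes were 1.05, 1.03 and 0.66. The lymphatic markers Prox1 (1.08 to 4.36 FPKM) and Reln (1.89 to 5.03 FPKM) rose beside Flt4. Lyve1 (104 to 119 FPKM) and Pdpn (4.44 to 3.95 FPKM) did not pass, and Mmrn1 was listed at 0 in all dKO libraries. The part of lymphatic cells in the rise of Flt4 was not tested. The ligands Vegfc (13.3 FPKM in CTR and 9.50 FPKM in dKO, adjusted p = 0.0695 from limma) and Vegfd (73.3 and 55.7 FPKM, adjusted p = 0.447 from limma) did not pass, nor did the coreceptors Nrp1 (23.3 and 20.1 FPKM) and Nrp2 (25.1 and 30.3 FPKM).

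Of the 45 genes that carry the VEGF receptor signal inside the cell, 42 were tested, 10 were higher and 7 lower, with a median log2 fold change of 0.01 (all genes tested, 20.4% higher, 32.6% lower and a median of −0.10). Nfatc1, a calcineurin-driven factor, rose by 0.50 on the log2 scale, Pik3cb by 0.38 and Nos3 (endothelial NO synthase) by 0.34, though Nos3 missed the threshold after rescaling to TPM (0.41, adjusted p = 0.0546 from limma). Hspb1, the small heat-shock protein that p38 signalling phosphorylates, fell by 0.87 from 511 to 281 FPKM, the calcineurin subunit gene Ppp3cc fell by 0.68 and the kinase gene Fyn fell by 0.47.

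Of 9 tested genes around Tie receptors, 1 was higher (Dok2), 1 was lower (Tnip2, which fell by 0.50 on the log2 scale) and 7 did not pass. The shares of all genes tested were 20.4% higher and 32.6% lower. Dok2, the adaptor that binds activated TEK, was at 0.333 to 0.745 FPKM in CTR and 1.97 to 4.30 FPKM in dKO libraries. It was tested only because its dKO values passed the filter, so it had to differ and its call is no support. Dok2 is also expressed in blood cells, and the macrophage markers rose in the same libraries, and their part in its level was not tested. Foxo1, which TEK signalling restrains, was at 4.97 and 5.63 FPKM (adjusted p = 0.311 from limma).

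Of 14 tested genes known to respond to VEGF or to mark endothelial tip cells, 4 were higher and 3 lower, with a median log2 fold change of 0.10. The shares of all genes tested were 20.4% higher and 32.6% lower. Esm1 rose from 6.50 to 13.9 FPKM (log2 fold change 0.98), Pdgfb from 11.8 to 21.7 FPKM (0.82) and Cxcr4 from 30.1 to 49.9 FPKM (0.71). Igfbp3 fell from 390 to 147 FPKM (−1.28), and Kcne3 (−0.81) was lower. Nr4a2, the third of those lower, was at 1.19 to 1.65 FPKM in CTR and 0.335 to 0.698 FPKM in dKO libraries and was tested only because its CTR values passed the filter, so its call is no support. Dll4, the Notch ligand of tip cells, was at 13.5 and 12.6 FPKM and Apln at 34.5 and 36.9 FPKM (adjusted p = 0.581 and 0.720 from limma).

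Of 17 transcription factors known at VEGF and Tie genes, 10 were higher and 3 lower, with a median log2 fold change of 0.38. The shares of all genes tested were 20.4% higher and 32.6% lower. The rises were led by Lmo2 (1.29), a partner of the endothelial and blood factors TAL1 and GATA2, and by the ETS factors Erg (1.03, also among the endothelial markers) and Fli1 (0.94). Erg went from 8.27 ± 1.04 to 17.9 ± 1.97 FPKM (SD, n = 6 each). Lower were Sp1, Hif1a (74.7 to 52.2 FPKM, log2 fold change −0.49, adjusted p = 0.0259 from limma) and its partner Arnt (−0.26). Sp1 is a targeted gene, so its call is no support. With median-of-ratios scaling Hif1a missed the threshold (−0.40, adjusted p = 0.0594 from limma). Epas1 (HIF-2α) rose from 22.7 to 43.8 FPKM (0.92). Sp4, a further factor of the Sp family, was at 2.88 and 2.90 FPKM (adjusted p = 0.961 from limma).

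The changes in all 5 lists are relative to all fragments, and scaling to the endothelial markers turned the direction of many. Among the named rises, those of Lmo2 (0.60), Flt4 (0.34), Erg (0.32) and Fli1 (0.27) kept an adjusted p under 0.05 from limma under it. Efnb2 (0.33), Esm1 (0.28), Epas1 (0.18) and Pdgfb (0.09) stayed positive without passing, while Nfatc1 (−0.11), Pik3cb (−0.23), Nos3 (−0.15), Cxcr4 (−0.04) and Cdh5 (−0.10) turned negative. Cdh5, the most abundant marker, and Erg are among the markers that set this scaling. Their values under it are therefore partly fixed in advance and are no support. The median of the genes inside the cell was then −0.73, as for all genes (−0.74), and that of the transcription factors was −0.27, with 3 of 17 higher and 9 lower, where 3.87% of all genes were higher and 80.7% lower.

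**Figure D5:**
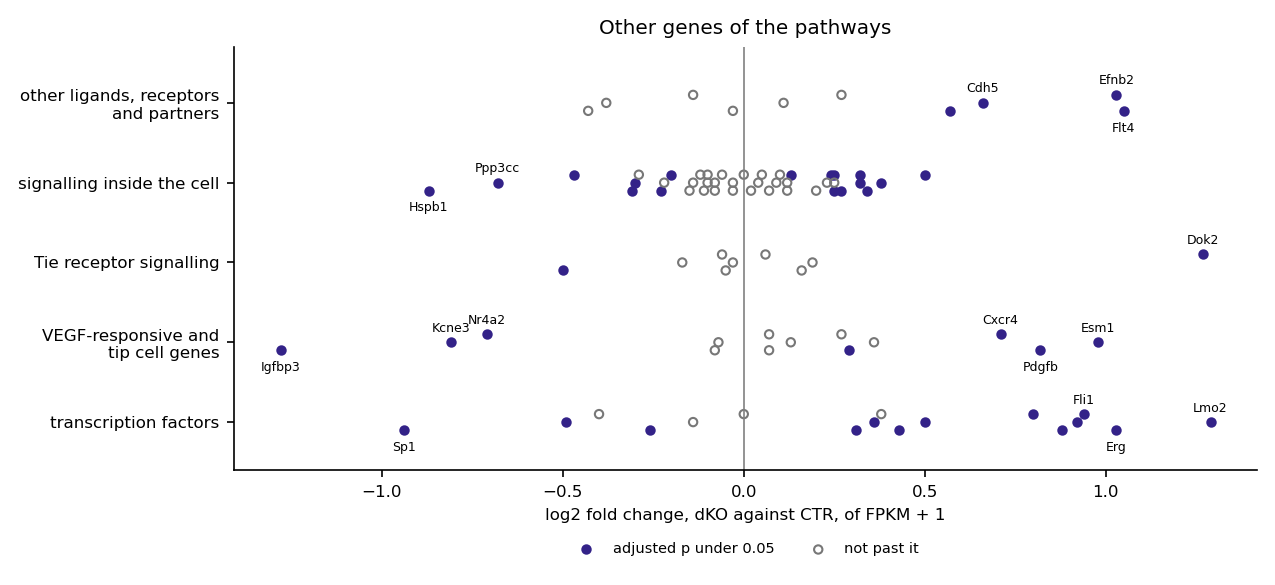
Log2 fold change (dKO against CTR, FPKM + 1, horizontal axis) of the tested genes in the 5 pathway lists, 1 row a list; filled points have an adjusted p under 0.05 and open points do not, and points are offset vertically for legibility only. Named genes include Lmo2 (1.29) and Flt4 (1.05) among the rises and Igfbp3 (−1.28) and Sp1 (−0.94) among the falls.

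Set beside the promoter windows, the genes with GC boxes did not move one way. Kdr, Flt1, Vegfa, Vegfb and the first Pgf window all held GC boxes, and their log2 fold changes were 0.82, 0.11, −0.77, 0.45 and 1.24. Tek and Tie1, with no GC box in their windows, had 0.49 and 1.26. The related GT box was present in windows of Tie1, Kdr, Flt1, Vegfa, Vegfb and Pgf, and absent from that of Tek. The windows of Pgf, Vegfb, Tie1 and Tek lie wholly or in part within the genomic span of transcripts that begin upstream. With 7 genes this is a description.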

How the data were processed

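RNA of cultured MLECs was measured in 12 libraries, 6 CTR and 6 dKO, grouped by GEO's genotype labels. The authors deposited FPKM values for 28689 genes. According to the study's methods, reads were trimmed with Trimmomatic, aligned to mm39 with STAR, extracted with sambamba and aligned again. The submitters' processing notes name Bowtie2 2.2.3, HISAT2 2.1.0, TopHat2 and DESeq2 with mm39 instead. The counting program, annotation and strand setting are not given in the sources used here. The columns of dKO libraries are named after tamoxifen, which both groups received, and were assigned through the labels.

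Symbols came from GENCODE vM39 (27706 genes matched). FPKM are not counts, so log2(FPKM + 1) was fitted with limma 3.58.1 in R 4.3.3 (eBayes with trend, no covariates) over the 12467 genes that reached 1 FPKM in 6 or more libraries of either group, with Benjamini-Hochberg adjustment. Fold changes on this scale understate those of genes with low FPKM. Ratios within a library (6 between members and 10 to the endothelial markers) were tested by two-sided exact permutation over 924 splits. The 10 genes, the lists and the tests were chosen with earlier results of these data known. Named genes are the 10, Sp1, Sp3, up to 3 rises and 3 falls of each pathway list, the most abundant gene of each marker list with markers near 0, and the 2 genes most like each receptor and Ptprb; other list genes were named after their values were seen.

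Library depth was the commonest value implied by genes with about 1 fragment and their annotated exon lengths. It was 15523054 to 17938286 fragments per library. At these depths, member gene lengths were sought that turn FPKM into whole fragments (within 0.02). They gave 217 (Angpt1) to 6945 (Angpt2) fragments per member and library, with a counting error of at most 6.79%. The fit was tested on simulated data, where 187 of 200 genes changed by 1 on the log2 scale were recovered and 15 of 12369 unchanged genes called. Promoter windows are RefSeq, GRCm38.p6, and were not mixed with mm39 positions. Alternatives covered pseudocounts, filters, scaling, moderation, the replicate block and leaving out each library. Figures used Matplotlib 3.10.9, and other steps Python 3.11.15, NumPy 2.4.6, pandas 2.3.3 and SciPy 1.17.1.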

Additional observations from a re-analysis of the deposited data

Results flagged for a closer look

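In 4 of 56 groups of 6 values (the FPKM of the 10 genes, Sp1 and Sp3, and the 16 ratios, in each group), 1 library stood far from the others of its group, against 2.8 expected by chance. The ratio of Angpt2 to Angpt1 was 35.9 in dKO replicate 1 and 4.83 to 10.1 in the other dKO libraries. The ratio of Angpt1 to the endothelial markers was 0.00705 in the same library and 0.0178 to 0.0230 in the others; without it the log2 difference between the groups was −0.36 for the first ratio and −0.13 for the second. The ratio of Pgf to Vegfa was 0.916 in CTR replicate 4 and 0.431 to 0.570 in the other CTR libraries, and this library also held the most endothelial marker RNA of the CTR group. The ratio of Kdr to the endothelial markers was 0.0139 in dKO replicate 6 and 0.0205 to 0.0225 in the other dKO libraries.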

How the results depend on the processing

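Over the 12 alternatives that keep all libraries, Vegfa, Pgf and Tie1 kept their direction and call. Scaling to the endothelial markers took the number of the 10 genes called from 7 to 4, with 2 higher in place of 6, while 84.6% of all genes were called and 3.87% were higher; Vegfb (−0.29), Flt1 (−0.54), Tek (−0.17) and Ptprb (−0.20) reversed in log2 fold change and Kdr (0.16) was no longer called. That scaling sets the summed markers equal in all libraries by construction. Under the other alternatives 7 or 8 of the 10 were called (Flt1 fell below the filter of 5 FPKM), as with any 1 library left out, where Angpt2 was the gene gained without dKO replicate 3. Of all genes, 4222 were called under a filter of 5 FPKM in 6 libraries, which leaves fewer genes to test, and 10545 with scaling to the endothelial markers. With the added fold threshold 486 and 525 genes passed with pseudocounts of 0.1 and 0.01, 387 after rescaling to TPM and 513 with scaling to the endothelial markers; the cause was not tested. With any 1 library removed, 5772 to 6736 genes were called and 209 to 258 with the fold threshold. The share of higher genes was 38.5%, 50.9% with median-of-ratios scaling and 4.58% with scaling to the endothelial markers.

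Whether equal replicate numbers pair the libraries is not given in the labels. Deviations of equally numbered libraries correlated between −0.108 and 0.565. In 2 of 6 cases a CTR library correlated best with the dKO library of its own number. With 6 numbers, these correlations cannot decide whether the libraries are paired. With the replicate number as a block, 6955 genes were called, and 7 of the 10, 6 of them higher. The 4 ratios between members that passed also did so under the block, at the smallest p that 6 pairs allow (exact sign-flip test, p = 0.0312).

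Of the ratios to endothelial markers, that of Vegfb lost an unadjusted exact permutation p under 0.05 in 7 of 12 fits with a library left out. With log2(FPKM + 1), those of Tek (−0.27) and Ptprb (−0.32) had an exact permutation p of 0.0108. Tek also passed without dKO replicate 3 (−0.26, exact permutation p = 0.013) and without Cdh5 among the markers (−0.25, exact permutation p = 0.0411), the latter chosen after seeing the data. Ptprb passed without dKO replicate 2 (−0.29, exact permutation p = 0.0303) or 5 (−0.29, exact permutation p = 0.0346).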
